A study of Mus musculus with 6 samples.

Results

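Interferon-stimulated genes are the transcripts that cells switch on when an interferon binds its receptor. The set described here holds 35 mouse genes, chosen from a list of well-known targets and found in the deposited gene tables by their NCBI Gene ID, of 45679 genes with a symbol in all. Of these, 25 are typical targets of type I interferon, 9 are guanylate-binding proteins (Gbp) and immunity-related GTPases (Irg) known as strong targets of interferon gamma, and Irf1 was kept apart from both classes. The rule that picks them uses no measured value, but the genes were chosen with earlier results of these data known.

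Type I interferons signal through Jak1 and Tyk2 to a complex that holds Stat2 and Irf9 and binds the interferon-stimulated response element (ISRE) in promoters. Interferon gamma signals through Jak1 and Jak2, acts on promoters with a gamma-activated site (GAS) and induces Irf1, a factor that itself binds the ISRE. The classes overlap, since many type I targets also respond to interferon gamma, and in the ovary both immune cells and resident cells can respond.

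Messenger RNA was sequenced from whole ovaries of wild-type BDF1 mice, a hybrid laboratory strain. Libraries labelled young PBS came from mice of 8 weeks given saline, those labelled old PBS from mice of 65 weeks given saline, and those labelled old MIT-001 from mice of 65 weeks given MIT-001, a scavenger of reactive oxygen species directed to mitochondria, at 0.5 mg/kg for 7 days into the abdomen. Each group had 2 libraries. The study used 20 young and 40 old mice, and how many animals made up a library is not given in the sources used here, so p-values measure only the spread between these libraries.

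Each library had 14346 to 16338 genes at a TPM (abundance scaled for transcript length and library total) of 1 or more, and the deposited coverage values correspond to 6.34 to 7.14 gigabases of aligned reads. TPM levels can be compared between genes. Cell type markers went against the age labels. The summed TPM of 12 oocyte markers was 488 to 512 in the libraries labelled old PBS, against 36.9 to 323 in those labelled young PBS and 44.9 to 90.8 in those labelled old MIT-001. The sum of 8 granulosa cell markers was 5193 to 6624, 2488 to 2602 and 1927 to 2872 in the same order. Every direction given here therefore holds for the libraries as labelled. In whole tissue, fewer cells of a type and less RNA per cell cannot be told apart.

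The promoters of the Gbp and Irg genes and of the type I targets were compared in the RefSeq promoter table of assembly GRCm38.p6, over the 250 bases before each transcription start. A promoter entry was found for 25 of the 35 genes, and Mx1, Mx2, Usp18, Ifi27, Dhx58, Parp14, Rtp4, Zbp1, Gbp6 and Iigp1 had none. The ISRE core was searched on both strands as GAAA, any 2 bases and GAAA again (on the other strand TTTC, any 2 bases, TTTC), and the GAS as TTC, any 3 bases and GAA, which reads the same on both. An ISRE core was present in 7 of 7 Gbp and Irg genes with an entry and in 7 of 17 type I targets, against 3.46% of all 27025 genes in the table. A GAS was present in 4 of 7 Gbp and Irg genes (Gbp5, Gbp7, Igtp and Irgm2) and in 2 of 17 type I targets (Ifit2 and Bst2), against 8.13% of all genes. Irf1 had a GAS and no ISRE core. A match describes the letters and shows no binding. A missing match does not mean that the element is absent, since only these exact forms over 250 bases were searched.

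The windows below show the main arrangements: an ISRE core alone near the start in Gbp2, overlapping cores in Irgm1 and Isg15, a GAS beside an ISRE core in Igtp, a far upstream core in Stat2, and a GAS that overlaps an ISRE core in Bst2. Capitals mark the ISRE cores and GAS matches, and each is written in the direction of transcription. Gbp2 is the window chr3:142620413-142620662 on the plus strand, Irgm1 chr11:48871421-48871670 on the minus strand and Igtp chr11:58199306-58199555 on the plus strand. Isg15 is chr4:156200819-156201068 on the minus strand, Stat2 chr10:128270248-128270497 on the plus strand and Bst2 chr8:71537473-71537722 on the minus strand, all in GRCm38.p6.
Gbp2: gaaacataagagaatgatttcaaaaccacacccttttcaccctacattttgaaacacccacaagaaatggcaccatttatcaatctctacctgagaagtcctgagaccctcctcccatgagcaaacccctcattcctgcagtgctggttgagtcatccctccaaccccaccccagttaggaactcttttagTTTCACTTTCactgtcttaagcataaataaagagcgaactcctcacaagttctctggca
Irgm1: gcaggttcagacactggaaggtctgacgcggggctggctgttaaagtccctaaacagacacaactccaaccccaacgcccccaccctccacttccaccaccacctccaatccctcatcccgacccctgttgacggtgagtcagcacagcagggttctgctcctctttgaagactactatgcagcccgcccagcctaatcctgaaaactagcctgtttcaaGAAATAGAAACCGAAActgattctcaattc
Igtp: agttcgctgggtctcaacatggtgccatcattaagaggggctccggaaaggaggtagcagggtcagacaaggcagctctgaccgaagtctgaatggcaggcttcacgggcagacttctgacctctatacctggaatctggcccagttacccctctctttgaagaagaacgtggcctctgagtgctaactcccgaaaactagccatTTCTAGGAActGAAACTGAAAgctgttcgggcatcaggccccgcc
Isg15: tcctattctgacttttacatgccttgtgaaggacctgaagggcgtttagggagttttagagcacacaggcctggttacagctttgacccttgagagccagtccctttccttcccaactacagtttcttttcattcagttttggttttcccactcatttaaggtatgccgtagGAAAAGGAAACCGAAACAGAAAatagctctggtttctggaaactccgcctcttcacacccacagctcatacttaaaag
Stat2: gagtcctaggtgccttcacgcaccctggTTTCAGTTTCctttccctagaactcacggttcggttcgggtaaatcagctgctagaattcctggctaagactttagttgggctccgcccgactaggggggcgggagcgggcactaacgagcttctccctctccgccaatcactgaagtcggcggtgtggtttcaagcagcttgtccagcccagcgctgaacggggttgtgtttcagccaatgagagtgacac
Bst2: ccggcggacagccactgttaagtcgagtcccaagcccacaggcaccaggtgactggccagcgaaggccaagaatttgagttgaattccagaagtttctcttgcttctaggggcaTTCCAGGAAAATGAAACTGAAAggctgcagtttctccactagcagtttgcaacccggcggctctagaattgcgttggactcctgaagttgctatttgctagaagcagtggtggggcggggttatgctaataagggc
Isg15 held 3 overlapping cores in a row, the most of the 25 genes with an entry. The core of Gbp2 began 59 bases before the start, that of Igtp 34 bases before it, and that of Stat2 222 bases before it. The overlap of the 2 motifs in Bst2 was the only one among the 25 genes.

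**Figure D1:**
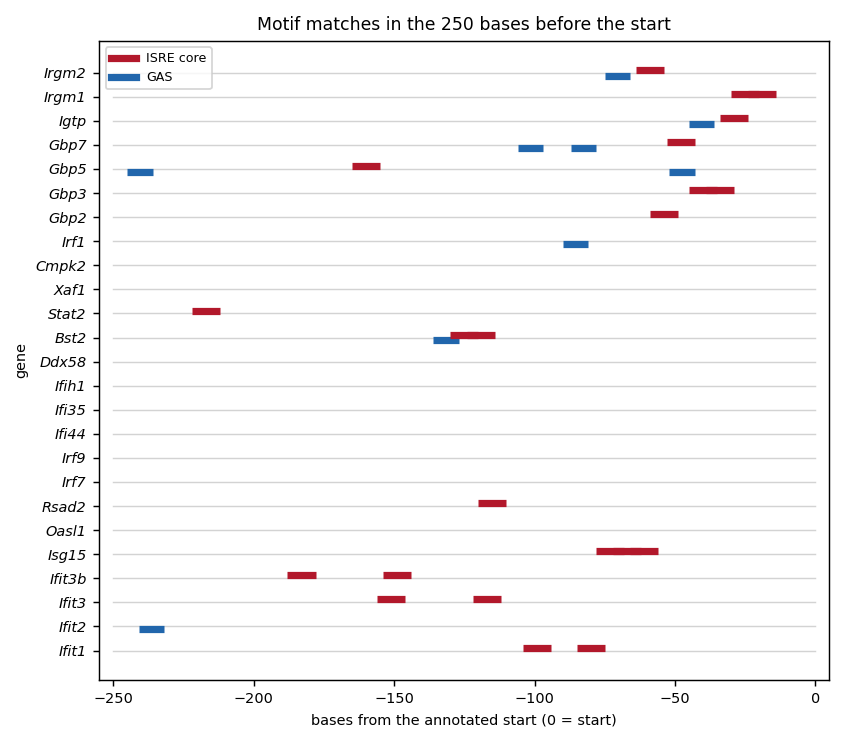
Positions of ISRE core and GAS matches in the 250 bases before the transcription start, by gene (vertical) and distance from the start in bases (horizontal), for the 25 genes with a promoter entry. All 7 Gbp and Irg genes with an entry hold an ISRE core, against 7 of 17 type I targets.

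Levels spanned a wide range between genes. Bst2, the surface protein tetherin that holds budding virus on the cell, had the highest mean TPM, with 689 and 671 in young PBS, 616 and 589 in old PBS and 466 and 500 in old MIT-001. Its 3 groups did not overlap and its order was unlike that of most of the set, with old MIT-001 lowest. Ifi27, a small membrane protein, came next with 269 and 362, 211 and 138, and 267 and 187 in the same order of groups. Gbp2, a GTPase that attacks the membranes around intracellular pathogens, followed with 90.9 and 77.6 in young PBS, 30.8 and 41.0 in old PBS, and 147 and 95.4 in old MIT-001. At the other end stood Mx1, a GTPase that blocks viral replication, with a TPM of 0.469 and 0.162, 0.180 and 0.188, and 0.859 and 0.309. Mx1 was the only one of the 35 that did not reach the level needed for testing, 2 or more libraries with a TPM of 1 or higher.

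The libraries labelled old PBS had the lowest group mean in 30 of the 35 genes, made up of 21 of 25 type I targets, 8 of 9 Gbp and Irg genes and Irf1. Young PBS had the highest group mean in 17 genes and old MIT-001 in 16, and of the 9 Gbp and Irg genes 6 were highest in old MIT-001 and 3 in young PBS. Single libraries contributed unequally. Old MIT-001 replicate 1 held the highest value of all 6 libraries in 17 genes, young PBS replicate 1 in 12, young PBS replicate 2 in 5 and old MIT-001 replicate 2 in 1. Replicate 1 of old MIT-001 was above its replicate 2 in 31 of the 35, against 55.1% of all genes tested.

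**Figure D2:**
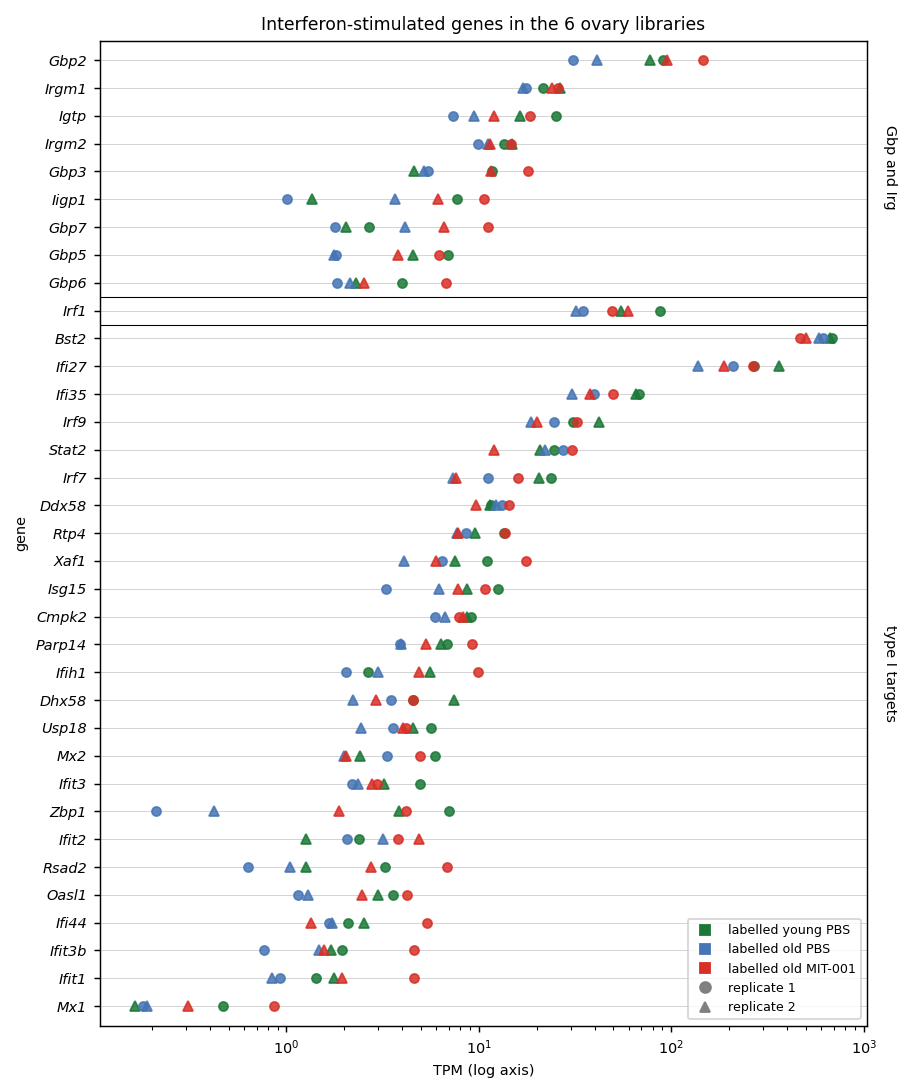
TPM of each of the 35 genes (vertical) on a log axis (horizontal), 1 point per library, coloured by group as labelled. The old PBS points sit at the low end for most genes, and old MIT-001 replicate 1 is the highest point in 17.

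Fold changes were estimated with limma on log2(TPM + 1), a scale that understates changes of genes with low values, with Benjamini-Hochberg adjustment across the 16473 genes tested. The 3 comparisons share libraries, so the values of old PBS enter both of the first 2 with opposite sign. No gene of the set passed an adjusted p of 0.05 in any comparison, so the differences below are values that did not pass.

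Libraries labelled old PBS stood lower than those labelled young PBS in 31 of the 35 genes and higher in 4, whereas 31.9% of all genes tested were lower and 68.1% higher. By limma, 0 of 34 genes tested were called, against 0.0364% of all genes, and at an unadjusted p below 0.05 10 were lower and 0 higher, against 3.55% and 14.6% of all genes. The groups did not overlap, with old PBS lower, in 26 of the 35 (19 type I targets, 6 Gbp and Irg genes, and Irf1), against 11.0% of all genes tested. In 1 gene, the RNA sensor Ddx58, the groups were separate with old PBS higher, against 38.1% of all genes. The median log2 fold change was -0.61 over the 25 type I targets and -0.45 over the 9 Gbp and Irg genes, where the median of all genes tested was 0.23. The Gbp and Irg median moved to -1.0 without young PBS replicate 2, where the type I median was -0.65, so the order of the classes turned with that library.

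Among the effectors in the type I class, Zbp1 had the largest difference. It encodes a sensor of Z-form nucleic acids that can start cell death. Its TPM was 7.00 and 3.84 in young PBS, 0.210 and 0.422 in old PBS, and 4.20 and 1.88 in old MIT-001. Old PBS was below every other library, by a log2 fold change of -2.25 ± 0.43 (SE) against young PBS (limma adjusted p = 0.205). The gene lies on the minus strand at chr2:173206612-173218959 (mm10).

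Isg15, the ubiquitin-like protein joined to newly made proteins during the response, had a TPM of 12.6 and 8.67 in young PBS, 3.29 and 6.21 in old PBS, and 10.8 and 7.79 in old MIT-001. Both old PBS libraries lay below the other 4, at -1.04 ± 0.38 against young PBS (limma adjusted p = 0.249). Usp18, the enzyme that removes Isg15 from its targets and also dampens the type I receptor, had 5.61 and 4.53, 3.57 and 2.45, and 4.18 and 4.04. Its groups were separate in all 3 pairs, with old MIT-001 between the others, but its p did not fall below 0.05 in any comparison. Ifi35, whose protein pairs with Nmi, had 68.4 and 65.4 in young PBS, 39.5 and 30.4 in old PBS, and 49.8 and 37.8 in old MIT-001. Young PBS was above the other 4 libraries, by -0.93 ± 0.24 for old PBS (limma adjusted p = 0.212), while the groups of old mice overlapped.

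The regulators Irf7 and Irf1 were also lowest in the libraries labelled old PBS, judged by group means. Irf7, the factor that amplifies type I interferon production, had a TPM of 23.7 and 20.5 in young PBS, 11.1 and 7.33 in old PBS, and 15.9 and 7.62 in old MIT-001. Young PBS stood above all others and the groups of old mice overlapped, and old PBS against young PBS gave -1.20 ± 0.40 (limma adjusted p = 0.232). Oasl1, which in mice limits translation of Irf7, had 3.57 and 2.98, 1.15 and 1.30, and 4.22 and 2.47, with both old PBS libraries below the other 4 (-0.94 ± 0.33 against young PBS, limma adjusted p = 0.246). Irf1 had 87.3 and 55.0 in young PBS, 34.7 and 32.1 in old PBS, and 49.0 and 59.4 in old MIT-001. Both old PBS libraries were below the other 4, at -1.03 ± 0.27 against young PBS (limma adjusted p = 0.216). Ifi27, with the levels given above, stood at -0.87 ± 0.32 (limma adjusted p = 0.251).

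Of the Gbp and Irg genes, 3 of 9 were lower in old PBS than in young PBS at an unadjusted p below 0.05. Gbp2 had -1.22 ± 0.28 (limma adjusted p = 0.210). Gbp5, which promotes inflammasome assembly, had a TPM of 6.89 and 4.56 in young PBS, 1.80 and 1.76 in old PBS, and 6.17 and 3.82 in old MIT-001. The old PBS libraries were the lowest 2 of the 6, at -1.25 ± 0.35 against young PBS (limma adjusted p = 0.224). Igtp, an Irg GTPase also called Irgm3 that guards host membranes, had 25.2 and 16.3, 7.32 and 9.49, and 18.4 and 11.95. Old PBS was again below the other 4 libraries, at -1.19 ± 0.34 (limma adjusted p = 0.224).

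The comparison depended on scaling and on single libraries. The count of 10 genes lower was 18 after centring each library on its median and 18 after quantile normalization, and 4 without old PBS replicate 2. Over all genes tested with an unadjusted p below 0.05, 80.5% were higher in old PBS as TPM, against 36.2% after median centring and 52.7% after quantile normalization. Centring moved the median of all genes from 0.23 to -0.09. The medians of both classes stayed below 0 under each of the alternatives run.

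Libraries labelled old MIT-001 stood higher than those labelled old PBS in 32 of the 35 genes and lower in 3, where 53.5% of all genes tested were higher and 46.5% lower. By limma, 0 of 34 were called, against 0.0182% of all genes, and at an unadjusted p below 0.05 10 were higher and 0 lower, against 7.45% and 4.36% of all genes. Among the 34 genes tested, the groups did not overlap, with old MIT-001 higher, in 22, against 27.2% of all genes tested. These were 9 of 9 Gbp and Irg genes, 12 of 24 type I targets tested, and Irf1. Old MIT-001 was lower without overlap in 1, Bst2, against 24.2%. Mx1, which was not tested, was also separate with old MIT-001 higher. The median log2 fold change was 1.08 over the Gbp and Irg genes and 0.39 over the type I targets, where all genes tested had 0.03. The type I median was 0.19 without old MIT-001 replicate 1 and 0.68 without replicate 2. The Gbp and Irg median was above the type I median by 0.41 to 0.94 over the fit reported and all alternatives run.

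Gbp2 had the smallest p of the set in this comparison, with the libraries labelled old MIT-001 above the other 4 and a log2 fold change of 1.71 ± 0.28 (limma adjusted p = 0.110). Gbp7 had a TPM of 2.69 and 2.04 in young PBS, 1.79 and 4.11 in old PBS, and 11.2 and 6.61 in old MIT-001. Both old MIT-001 libraries exceeded all others, by 1.35 ± 0.43 against old PBS (limma adjusted p = 0.305). Gbp3 had 11.6 and 4.62, 5.46 and 5.18, and 18.1 and 11.6, so that both old MIT-001 libraries lay above old PBS and young PBS replicate 1 fell between them. Its difference from old PBS was 1.29 ± 0.45 (limma adjusted p = 0.345), and that of Gbp5 was 1.08 ± 0.35 (limma adjusted p = 0.314).

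These 4 genes lie together on the plus strand of chromosome 3 in mm10, with Gbp5 at chr3:142496934-142522344, Gbp7 at chr3:142530336-142550151, Gbp3 at chr3:142560016-142573213 and Gbp2 at chr3:142620663-142638008. They are close relatives in sequence, as are the Irg genes, Ifit3 with Ifit3b, and Mx1 with Mx2. Reads may be divided between such copies, so single values of these genes are uncertain and the genes of a family are not independent measurements.

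In the type I class, 5 of 24 genes tested were higher in old MIT-001 than in old PBS at an unadjusted p below 0.05. Zbp1 stood at 1.56 ± 0.43 (limma adjusted p = 0.259). Rsad2, which makes a chain-terminating nucleotide that stops viral RNA synthesis, had a TPM of 3.24 and 1.26 in young PBS, 0.631 and 1.04 in old PBS, and 6.85 and 2.76 in old MIT-001. Old PBS was lowest and old MIT-001 overlapped young PBS, with 1.57 ± 0.50 against old PBS (limma adjusted p = 0.306). Ifit1, which binds viral RNA lacking the host cap structure, had 1.43 and 1.76, 0.921 and 0.838, and 4.59 and 1.94. Its groups were separate in all 3 pairs, in the order old PBS, young PBS, old MIT-001, with 1.11 ± 0.39 between the groups of old mice (limma adjusted p = 0.351). Oasl1 stood at 0.94 ± 0.33 (limma adjusted p = 0.353).

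Ifih1, the cytoplasmic sensor of long double-stranded RNA also called MDA5, had a TPM of 2.67 and 5.60 in young PBS, 2.05 and 2.99 in old PBS, and 9.89 and 4.87 in old MIT-001. Old MIT-001 was above old PBS and overlapped young PBS, with 1.20 ± 0.46 against old PBS (limma adjusted p = 0.390). Irf1 stood at 0.68 ± 0.27 (limma adjusted p = 0.417). Cmpk2, a mitochondrial nucleotide kinase, had 9.14 and 8.66, 5.89 and 6.67, and 7.90 and 8.28, and Ifit3, a partner of Ifit1, had 4.97 and 3.22, 2.19 and 2.35, and 2.94 and 2.78. Both had separate groups in all 3 pairs, with old MIT-001 between old PBS and young PBS, and no p below 0.05. Ifit3b, a near copy of Ifit3, had 1.95 and 1.70, 0.767 and 1.48, and 4.61 and 1.56, and its old MIT-001 libraries lay on both sides of young PBS.

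The count of 10 genes higher rested on few libraries: it was 1 without old MIT-001 replicate 1, 1 without old PBS replicate 1 and 4 without old PBS replicate 2. It was 6 after quantile normalization and 5 when genes needed a TPM of at least 5, a filter that left 22 of the 35 to test. The Gbp and Irg median stayed above that of the type I targets with each library left out in turn.

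Libraries labelled old MIT-001 stood lower than those labelled young PBS in 19 of the 35 genes and higher in 16, against 30.7% and 69.3% of all genes tested. By limma, 0 of 34 genes tested were called, against 0.0% of all genes, and at an unadjusted p below 0.05 1 was lower and 2 were higher, against 0.813% and 17.1% of all genes. The groups did not overlap with old MIT-001 lower in 7 of the 35, all type I targets, against 6.56% of all genes, and higher in 4 (2 type I targets and 2 Gbp genes), against 37.3%. Gbp7 stood higher in old MIT-001 by 1.52 ± 0.43 (limma adjusted p = 0.163). Ifit2, which like Ifit1 acts against viral RNA, had a TPM of 2.39 and 1.27 in young PBS, 2.05 and 3.18 in old PBS, and 3.78 and 4.86 in old MIT-001, with old MIT-001 above all others and 0.93 ± 0.36 against young PBS (limma adjusted p = 0.254). Ifi35 stood lower by -0.61 ± 0.24 (limma adjusted p = 0.256).

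The median log2 fold change of old MIT-001 against young PBS was -0.12 over the type I targets and 0.36 over the Gbp and Irg genes, with 0.24 over all genes tested. The direction of the Gbp and Irg median depended on scaling, with -0.06 after median centring and -0.13 after quantile normalization, where the type I median was -0.54 and -0.50. Centring moved the median of all genes from 0.24 to -0.17, and the share of genes higher among those at an unadjusted p below 0.05 from 95.5% to 44.2%. The direction of the type I median depended on single libraries, with 0.07 without young PBS replicate 1 and 0.29 without old MIT-001 replicate 2. The Gbp and Irg median was 0.07 without young PBS replicate 2 and 0.01 without old MIT-001 replicate 1, and 0.60 and 0.80 without the other library of each group. The count lower was 10 after centring and 7 after quantile normalization.

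**Figure D3:**
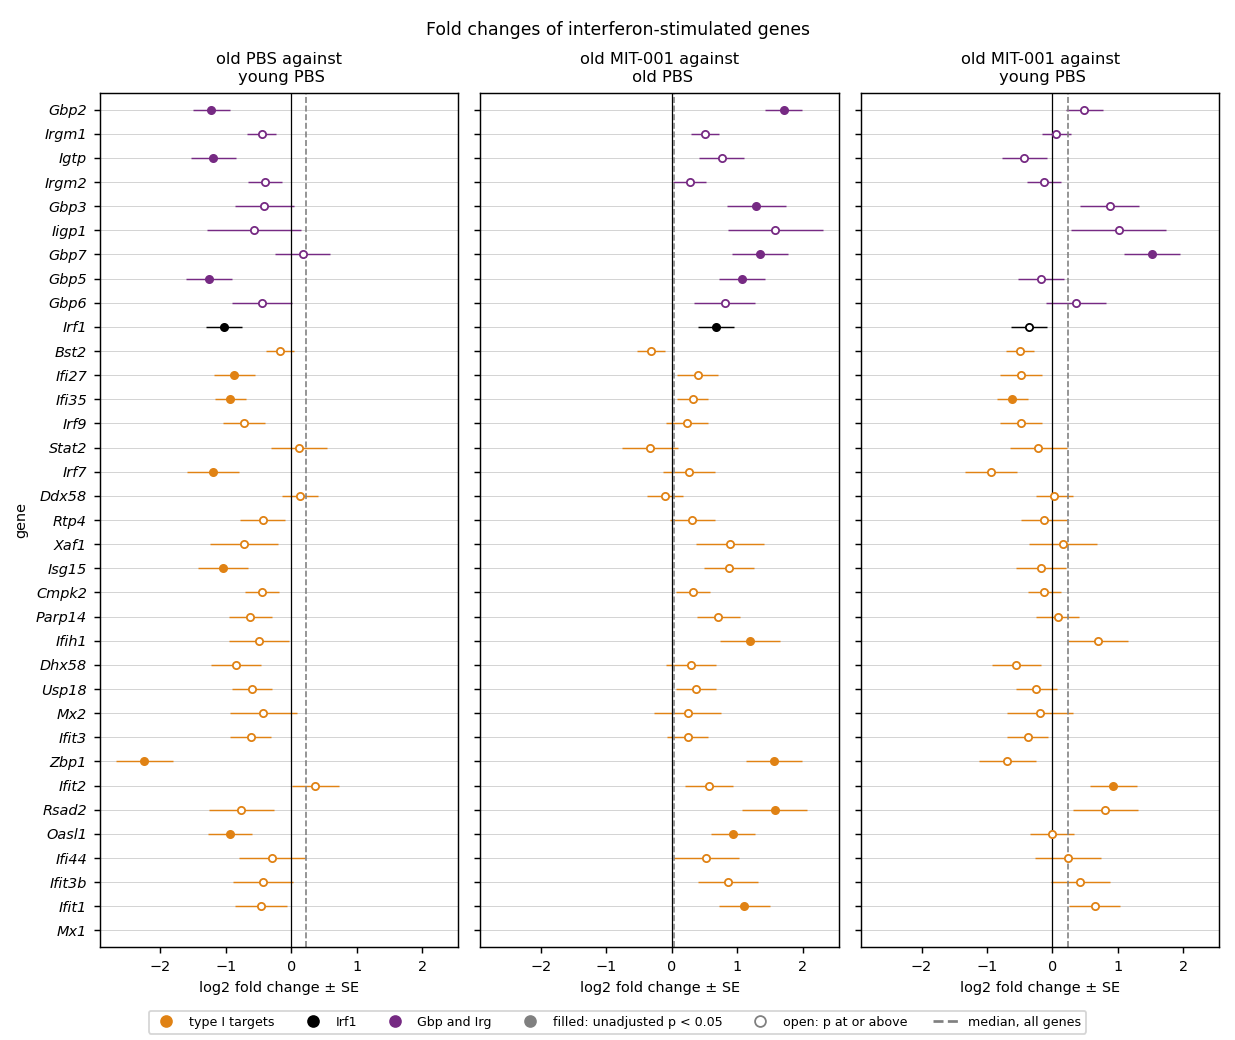
Log2 fold change ± SE of each gene (horizontal; genes vertical) in the 3 comparisons, from limma on log2(TPM + 1), filled where the unadjusted p is below 0.05; Mx1 was not tested. The dashed line is the median of all genes tested, and none of the genes passed after adjustment.

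The other 13 genes, which did not reach an unadjusted p of 0.05, were Mx2, Irf9, Ifi44, Ddx58, Dhx58, Stat2, Xaf1, Parp14, Rtp4, Gbp6, Irgm1, Irgm2 and Iigp1. Their mean TPM ran from 2.45 for Ifi44 to 28.1 for Irf9, which with Stat2 (mean TPM 22.9) carries the type I signal to the ISRE. Their log2 fold changes lay between -0.85 and 0.13 for old PBS against young PBS, between -0.33 and 1.58 for old MIT-001 against old PBS, and from -0.55 to 1.01 when old MIT-001 was set against young PBS. The smallest limma adjusted p among them was 0.305, 0.451 and 0.506 in the 3 comparisons. Ddx58, also called RIG-I, varied least in level of the 3 cytoplasmic RNA sensors of the set, with 9.68 to 14.4 over the 6 libraries, against 2.22 to 7.44 for its relative Dhx58 and 2.05 to 9.89 for Ifih1.

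The class medians can also be set side by side within each library. They come from the same TPM values as the fold changes, so they are not separate evidence. The gap within a library also reflects which genes each class holds. The median TPM of the Gbp and Irg genes was 11.6 and 4.62 in young PBS, 5.46 and 5.18 in old PBS, and 14.6 and 11.4 in old MIT-001. That of the type I targets was 6.84 and 6.33, 3.49 and 3.18, and 7.90 and 4.87. On the log2 scale the Gbp and Irg median was above the type I median by 0.81 and 1.08 in old MIT-001 and by 0.52 and 0.56 in old PBS, and the young PBS libraries had 0.69 and -0.38. The 2 young libraries thus differed from each other by more than either other pair, and the young PBS range of this gap overlapped that of old PBS.

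Genes with an ISRE core in the promoter window had a median log2 fold change of 0.86 (14 genes) for old MIT-001 against old PBS, and those without one 0.52 (11 genes). The medians for old PBS against young PBS were -0.46 and -0.72. The genes with a core include all 7 Gbp and Irg genes with an entry, so the split by motif repeats much of the split by class, and both groups of genes had values on both sides of 0 in both comparisons.

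Markers of immune cells were lowest in the libraries labelled old PBS. The summed TPM of 12 macrophage markers was 1230 to 1284 in young PBS, 225 to 309 in old PBS and 614 to 778 in old MIT-001. Of the 12, 12 were lower in old PBS than in young PBS, against 31.9% of all genes tested, and limma called 2 of them, C1qa and C1qc, against 0.0364%. The 12 were also higher in old MIT-001 than in old PBS, against 53.5% of all genes tested, with 0 called and 9 higher at an unadjusted p below 0.05, against 7.45%. None of the 12 was at 0 in any library.

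The sum of 13 T and natural killer cell markers, cells known as main sources of interferon gamma, was 25.7 to 30.0 in young PBS, 6.31 to 8.45 in old PBS and 14.7 to 26.8 in old MIT-001. Of the 13, 12 were lower in old PBS than in young PBS and 10 were higher in old MIT-001 than in old PBS. The shares of all genes tested were 31.9% and 53.5%. Only 8 of the 13 reached the level needed for testing. Of these, 8 were lower in old PBS than in young PBS and 7 higher in old MIT-001 than in old PBS. Gzmb was higher in old PBS than in young PBS, and Gzma, Gzmb and Klrb1c were lower in old MIT-001 than in old PBS. Cd8b1 was listed at 0 in old PBS replicate 1. The sum of 7 B and plasma cell markers was 248 to 1458, 17.1 to 17.3 and 105 to 973, with Ms4a1 listed at 0 in young PBS replicate 2.

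Other lists had other orders. The sum of 6 plasmacytoid dendritic cell markers, one of which is Bst2, was 686 to 704 in young PBS, 625 to 638 in old PBS and 523 to 561 in old MIT-001, the order of Bst2 itself. Tcf4, another of the 6, had 13 and 8.55, 20.9 and 34.4, and 50.6 and 51.5, the opposite order. The sum of 7 surface epithelium markers was 266 to 366, 168 to 177 and 640 to 676. That of 6 oviduct and ciliated cell markers was 42.2 to 135, 23.5 to 32.6 and 333 to 598, and both sums were highest in old MIT-001. In old MIT-001 replicate 1 the sum of 598 was mostly Ovgp1, at 567. Foxj1 and Tekt1, of ciliated cells, had 0.867 and 0.374 there, against 67.0 and 26.3 in replicate 2. The sum of 6 adipocyte markers was 391 in young PBS replicate 1 and 60.7 in replicate 2, against 29.1 to 48.5 in old PBS and 100.2 to 113 in old MIT-001. Of these 6, 5 were lower in old PBS than in young PBS, against 31.9% of all genes tested, and 1, Plin1, was higher. Plin1 had 9.16 and 19.2, 23.8 and 32.5, and 7.78 and 20.1, and made up most of the old PBS sums. The part of these cell types in the interferon-stimulated genes was not tested.

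**Figure D4:**
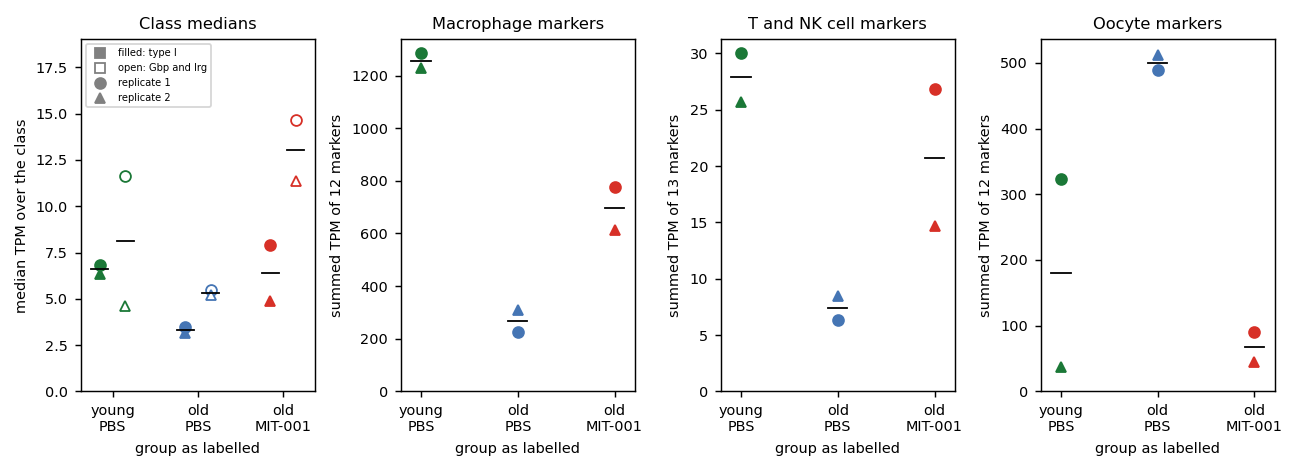
Median TPM of the 25 type I targets (filled) and the 9 Gbp and Irg genes (open), and summed TPM of macrophage, T and natural killer cell, and oocyte markers, by group as labelled; circles are replicate 1, triangles replicate 2 and bars the means of 2 libraries. Old PBS is lowest for the type I median and for both immune marker sums and highest for oocyte markers, and for the Gbp and Irg median young PBS replicate 2 lies below old PBS.

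The interferons themselves were scarce. Of 10 ligand genes, Ifna1, Ifna2, Ifna4, Ifna5, Ifnk and Ifnl2 were listed at a TPM of 0 in all 6 libraries. Ifnb1, the first type I interferon made by most cells, was listed at 0 in all but young PBS replicate 1 (0.143). Ifne, a type I interferon of reproductive tract epithelium, had 1.17 in old MIT-001 replicate 1 and 0.0038 in young PBS replicate 2 and was listed at 0 in the other libraries. Ifng, the interferon gamma gene, had 0.182 and 0 in young PBS, 0 and 0 in old PBS, and 0.371 and 0.0602 in old MIT-001. Only Ifnl3, a type III interferon, was tested, with 5.41 and 0.988, 1.59 and 2.11, and 2.30 and 0.381, and its groups overlapped in all 3 pairs. These ligands were named after their values were seen. Without read counts, no detection limit can be set for the values of 0.

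Receptors and signal carriers had no uniform direction, and limma called none of them. Their counts at an unadjusted p below 0.05, given next, stand beside the same shares of all genes tested: 3.55% lower and 14.6% higher in old PBS than in young PBS, 4.36% and 7.45% in old MIT-001 than in old PBS, and 0.813% and 17.1% in old MIT-001 than in young PBS. Of 6 receptor genes, 1 was higher in old PBS than in young PBS at an unadjusted p below 0.05, 1 was higher in old MIT-001 than in old PBS, and 0 differed at that level between old MIT-001 and young PBS. The first was Ifngr2, the signalling chain of the interferon gamma receptor, with a TPM of 66.7 and 68.7 in young PBS, 93.2 and 101 in old PBS, and 85.4 and 88.9 in old MIT-001 (0.52 ± 0.18, limma adjusted p = 0.242). The second was Ifnlr1, the type III interferon receptor, with 1.74 and 2.28, 1.39 and 1.14, and 4.33 and 2.45 (0.92 ± 0.35, limma adjusted p = 0.378). By direction alone, 5 of the 6 receptor genes were higher in old MIT-001 than in old PBS, against 53.5% of all genes tested. These 5 were also separate, against 27.2%, and the other 1, Ifngr2, was separate with old MIT-001 lower, against 24.2%. In old PBS against young PBS 4 were lower and 2 higher, against 31.9% and 68.1%.

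Of 10 kinases and transcription factors, 1 was lower and 1 higher in old PBS than in young PBS at an unadjusted p below 0.05, 1 was lower and 1 higher in old MIT-001 than in old PBS, and 2 were higher in old MIT-001 than in young PBS. Jak1, the kinase shared by both pathways, had a TPM of 132 and 154, 250 and 269, and 158 and 166. It ran opposite to the targets, with 0.86 ± 0.19 for old PBS against young PBS (limma adjusted p = 0.210) and -0.68 ± 0.19 for old MIT-001 against old PBS (limma adjusted p = 0.268). Jak2, the kinase of the interferon gamma receptor, had 18.2 and 11.9, 17.8 and 27.1, and 40.6 and 31.9, with both old MIT-001 libraries above the other 4 (1.23 ± 0.32 against young PBS, limma adjusted p = 0.161). Irf5, a factor of macrophages and B cells, had 18.5 and 11.6, 4.85 and 4.0, and 20.0 and 16.1, with 1.81 ± 0.32 for old MIT-001 against old PBS (limma adjusted p = 0.120).

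Of 8 inhibitors, 2 were lower in old PBS than in young PBS at an unadjusted p below 0.05 (Socs3 and the phosphatase Ptpn6), and 1 was higher in old MIT-001 than in old PBS. Socs3, which blocks cytokine receptors, had 108 and 37.5 in young PBS, 19.8 and 17.1 in old PBS, and 45.7 and 133 in old MIT-001. Both old PBS libraries were lowest and the other groups each spread widely, with 2.02 ± 0.64 for old MIT-001 against old PBS (limma adjusted p = 0.305). Of 9 sensors and adaptors, 8 were tested, of which 1 was lower in old PBS than in young PBS at an unadjusted p below 0.05 and 1 was higher in old MIT-001 than in old PBS. Both were Sting1, the adaptor of cytoplasmic DNA sensing, with 25.3 and 18.2, 9.41 and 9.31, and 16.9 and 15.8 (-1.12 ± 0.26 and 0.74 ± 0.26, limma adjusted p = 0.210 and 0.342). At an unadjusted p below 0.05, 1 gene of this list was higher in old MIT-001 than in young PBS. It was Tlr3, an endosomal sensor of double-stranded RNA, with 2.09 and 1.83, 2.26 and 4.81, and 7.32 and 6.63 (1.43 ± 0.37, limma adjusted p = 0.161).

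A further 32 interferon targets lie outside the set, in a list also chosen with earlier results of these data known. Of these, 31 were tested. At an unadjusted p below 0.05, 10 were lower and 0 higher in old PBS than in young PBS, against 3.55% and 14.6% of all genes. In old MIT-001 against old PBS 0 were lower and 12 higher, against 4.36% and 7.45%, and when old MIT-001 was set against young PBS 0 were lower and 6 higher, against 0.813% and 17.1%. All 32 were higher in old MIT-001 than in old PBS, against 53.5% of all genes tested, with a median log2 fold change of 0.80, and limma called none of them in any comparison. Ifitm3, which blocks virus entry in endosomes, had a TPM of 426 and 433 in young PBS, 184 and 118 in old PBS, and 341 and 238 in old MIT-001. Its 3 groups did not overlap, with -1.53 ± 0.30 for old PBS against young PBS (limma adjusted p = 0.205). Cxcl10, a chemokine that draws T cells and is induced by interferon gamma, had 13.6 and 5.04, 0.880 and 1.60, and 3.59 and 4.90, with -2.09 ± 0.49 for old PBS against young PBS (limma adjusted p = 0.211). Ifi47, another Irg GTPase, had 26.3 and 16.5, 6.81 and 7.44, and 16.2 and 13.3, with old PBS below the other 4 libraries, as for Igtp. Old MIT-001 was below young PBS without overlap for Ifi47, though only by 16.2 against 16.5. For Igtp these groups overlapped and only the mean was lower.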

How the data were processed

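Ovary mRNA of 3 labelled groups with 2 libraries each was compared. The labels' protocols name TRIzol for RNA and a SMARTer kit for the libraries. Trimmomatic, HISAT2, StringTie and mm10 are named per the submitters' processing notes; their versions, the annotation and the strand setting are not given there. TPM values, deposited per library, are scaled for length and library total, per the file headers. FPKM values, deposited beside them, served as an alternative scale. The coverage signal in the deposited tables is read depth over a gene and was used only to estimate depth. No read counts were used, so the spread between libraries is the only measure of precision.

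Symbols came from a RefSeq gene table (GRCm38.p6) matched on Gene ID. In each library 98 of 45781 or 45782 rows did not match and held 0.0145% to 0.0301% of TPM. The 16473 genes that reached a TPM of 1 in 2 or more libraries were fitted with limma 3.58.1 (R 4.3.3) on log2(TPM + 1), with 1 mean per group over all 6 libraries and empirical Bayes moderation with an intensity trend. The fit had 3 residual degrees of freedom and 3.12 from the prior. All tests were two-sided, and Benjamini-Hochberg adjustment ran across these genes, and a gene was called at an adjusted p below 0.05. The procedure was also run on simulated data with noise drawn separately for each gene. That setting differs from genes that vary together, so it does not vouch for the results of this set. Class medians cover all members, tested or not.

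The members and lists were chosen with earlier results of these data known. Full values are given for members with an unadjusted p below 0.05 in any comparison, for those whose groups were separate in all 3 pairs, and for the 3 highest and 3 lowest mean TPM; of the pathway lists, up to 3 genes each with the smallest unadjusted p below 0.05 were eligible. The alternatives were a pseudocount of 0.1, no filter, a TPM filter of 5, quantile normalization, median centring, FPKM, TPM after removal of immunoglobulin, haemoglobin and mitochondrial genes, a fit of the 4 libraries compared, no intensity trend, a replicate block, and each library left out. Orientation of the printed promoters was checked against GENCODE M21 transcripts.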

Additional observations from a re-analysis of the deposited data

How the results depend on the processing

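No interferon-stimulated gene of the set was called in any comparison under any of the 16 alternatives. Of 42 results for named genes, 660 alternative values kept direction and side of the threshold, 3 (Irf5, old MIT-001 against old PBS) passed it and 0 reversed. Genes called over the whole table were few and unstable. For old PBS against young PBS there were 6, and 46 without the filter, 11 as FPKM, 15 after median centring, 17 after quantile normalization, 0 with only the 4 libraries compared, 1 without the trend and 0 to 948 with a library left out (948 without young PBS replicate 1, 14 without young PBS replicate 2). For old MIT-001 against old PBS there were 3, and 103 without the filter, 1 as FPKM, 1 after centring, 356 with the 4 libraries and 0 to 372 with a library left out (358 and 372 without young PBS replicate 1 or 2, leaving that arm with 1 library assumed to vary like the rest). For old MIT-001 against young PBS there were 0, and 60 without the filter. Counts of members at an unadjusted p below 0.05 also moved. Lower in old PBS than in young PBS were 10, and 18 after centring, 18 after quantile normalization and 4 to 11 with a library left out. Lower in old MIT-001 than in old PBS were 0, and 1 without the filter, 1 with the 4 libraries and 0 to 1 with a library left out; higher were 10, and 5 with the TPM filter of 5, 6 after quantile normalization and 1 to 14 with a library left out. Lower in old MIT-001 than in young PBS was 1, and 2 without the filter, 3 as FPKM, 10 after centring, 7 after quantile normalization, 0 with the 4 libraries, 0 without the trend and 0 to 2 with a library left out; higher were 2, and 1 each with the TPM filter of 5, as FPKM, after centring, after quantile normalization and with the 4 libraries, and 0 to 4 with a library left out. The type I median was -0.93 after centring for old PBS against young PBS, 0.19 to 0.68 with a library left out in old MIT-001 against old PBS, and its values for old MIT-001 against young PBS were -0.54 after centring, -0.50 after quantile normalization and -0.41 to 0.29 with a library left out. The Gbp and Irg median for old PBS against young PBS was -1.0 to -0.45 with a library left out (-1.0 without young PBS replicate 2). The cause of these shifts was not tested. Libraries with the same replicate number correlated at 0.00656, 0.239 and 0.175 in their deviations from the group means. With 2 libraries per group these values cannot show whether the numbers mark shared animals or batches, and the labels do not say. With the replicate number as a block, 1 gene was called for old PBS against young PBS and 0 for old MIT-001 against old PBS, and in old MIT-001 against young PBS 2 members were lower and 1 higher at an unadjusted p below 0.05. Depth limits the genes with a TPM near 1 or below, such as Mx1, most.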
